A study of Mus musculus with 2 samples.

Results

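The cytosolic ribosomal protein genes encode the protein part of the ribosomes that translate messenger RNA in the cytosol. The members were taken by name: every row whose symbol starts with Rpl, Rps or Rplp followed by a digit, without the Rps6k kinases and without symbols that contain -ps, the usual mark of a processed pseudogene. This rule took 87 of 23282 rows. Of these, 76 encode structural proteins of the large (60S) or small (40S) subunit. The other 11 are 6 paralogs that may replace a standard subunit protein (Rpl3l, Rpl10l, Rpl22l1, Rpl36al, Rpl39l and Rps27l), Rps4l, a copy of the X-linked Rps4x, the retrotransposed copies Rps27rt and Rpl37rt, the ribosome assembly factor Rpl7l1, and Rps19bp1, whose product binds the 40S protein Rps19. The rule does not take 4 listed genes of ribosomal proteins with other names, among them Rpsa, Fau and Gnb2l1 (now Rack1), which are described apart.

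Naïve CD4+ T cells from the spleens of wild-type female C57BL/6 mice aged 7 to 10 weeks were stimulated through the T cell receptor, with an antibody to CD3ε fixed to the plate at 5 μg/ml, and through the costimulatory receptor CD28, with an antibody in the medium at 2 μg/ml. Both cultures received the conditions that induce regulatory T (Treg) cells: TGF-β1 (5 ng/ml), IL-2 (1 ng/ml), anti-IFN-γ (10 μg/ml) and anti-IL-4 (10 μg/ml). For 1 day, 1 culture was kept with the solvent DMSO (control) and 1 with 10 μM Tubastatin A (TSA), an inhibitor of histone deacetylase 6, which removes acetyl groups mainly from cytosolic proteins such as tubulin. There was 1 library per condition, so no difference between them has a replicate check, and intervals given here cover counting error only. In RNA from a whole culture, fewer cells that express a gene and less RNA per cell cannot be told apart.

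Each ribosome carries a single copy of most of these proteins, and cells keep their amounts matched. A resting T cell has few ribosomes and makes many more when it is activated, before it divides. Most ribosomal protein mRNAs start with a C followed by a run of pyrimidines, called a 5′ terminal oligopyrimidine (TOP) tract, through which the kinase mTORC1 and the RNA-binding protein Larp1 control whether they are translated. Mammalian genomes also hold very many retrotransposed copies of these genes, nearly all of them silent, whose sequence is close to that of the parent gene.

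The start sequences are shown because the TOP tract, which is read from the first bases of the mRNA, is known from most of these genes. The lines below give 10 bases before and 20 bases from the start annotated by RefSeq (GRCm38.p6), 5′ to 3′ on the strand of the gene, with the longest run of C and T inside the window in capitals. The first 4 genes were lower in the TSA library and the last 4 were higher.
Rpl4 (chr9:64173377-64173406, plus strand): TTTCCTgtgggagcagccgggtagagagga
Rpl28 (chr7:4792955-4792984, plus strand): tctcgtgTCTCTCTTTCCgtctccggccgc
Rpl14 (chr9:120571507-120571536, plus strand): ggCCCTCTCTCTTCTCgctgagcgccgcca
Rps9 (chr7:3704031-3704060, plus strand): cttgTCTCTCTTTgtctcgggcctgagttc
Rps18 (chr17:33955646-33955675, minus strand): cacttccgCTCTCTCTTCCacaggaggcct
Rplp2 (chr7:141447641-141447670, plus strand): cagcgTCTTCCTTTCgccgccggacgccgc
Rpl35 (chr2:39005112-39005141, minus strand): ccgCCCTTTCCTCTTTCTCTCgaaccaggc
Rpl5 (chr5:107900518-107900547, plus strand): cgtcgCTTgcgtgctggtggtgctacatac
Among these genes, which were not taken by rank of difference, long tracts stood on both sides. The run was 14 bases in Rpl14 and 11 in Rpl28, and 18 bases in Rpl35 and 11 in Rps18. Several larger rises had shorter runs within 25 bases of the start: 6 in Rpl37 and Rpl23, 5 in Rpl27 and Rps16, and 8 in Rpl10a. Among matched members with a normalized count averaging 500 or more, a run of at least 7 stood in 18 lower and 20 higher ones. It was absent from 8 lower and 17 higher ones. The runs inside the windows of Rpl4 and Rpl5 were 6 and 3 bases, but that of Rpl4 is cut by the edge of the window, and within 25 bases of the start the longest runs of these 2 genes were 14 and 9. Annotated starts can lie some bases away from the start used in these cells.

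The deposited value of a gene is log2 of a normalized count plus 1, and the normalized counts fell on steps of 1 read, from which 10845868 reads on genes were recovered for control and 10432698 for TSA cells. The kit primes at the poly(A) tail and gives about 1 read per captured transcript, so a level is given here in RPM, the reads of a gene scaled to a library total of 1000000 gene reads, with no division by length. All 8 T cell markers (among them Cd3e, Cd4 and Lck) had reads in both libraries and summed to 1780 and 1991 RPM, and the Treg markers Foxp3, Il2ra and Ctla4 summed to 1064 and 902. Markers of other cells were near 0: 7.38 and 8.34 RPM over Cd8a and Cd8b1, 1.11 and 1.44 over 5 B cell genes, 2.58 and 2.88 over 6 myeloid genes, 4.33 and 7.19 over 6 erythroid genes, and 0 and 0.288 over 3 NK cell genes. Pax5, Klrb1c and Hba-a2 were at 0 reads in both libraries. Rn45s, the precursor of ribosomal RNA, took 8.72% of the gene reads in control and 9.63% in TSA cells. The part of cells of other types in the results was not tested.

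The members together took 9.76% of all gene reads in the control library (95% exact binomial interval 9.74% to 9.78%) and 10.66% in the TSA library (10.64% to 10.68%). Their share was thus higher with TSA, and the intervals, which cover counting error only, did not overlap. A comparison of shares is a scaling by total reads, which raises log2 differences by 0.070 above the scaling of the deposited values. With the deposited scaling the summed normalized counts of the members had a log2 difference of 0.057. Without Rn45s in the total the shares were 10.7% and 11.8%. The 60S genes took 5.84% and 6.38% of the gene reads, and the 40S genes 3.92% and 4.28%. The balance between the subunits was nearly the same in both libraries, with 40S genes at 40.2% of the member reads in control and 40.1% in TSA cells. The 10 most read members held 33.5% and 33.9% of the member reads.

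Levels differed far more between members than between libraries. Among the 76 structural genes the level in the control library ran from 213 RPM for Rpl35a to 6067 for Rplp1, with a median of 892, so the highest was 28.5-fold the lowest. In the TSA library the levels ran from 197 RPM for Rps27 to 6599 for Rplp1, with a median of 937, a 33.5-fold range. Only 41 and 38 of the 76 lay within 2-fold of the median of their library, although most of these proteins stand at 1 copy per ribosome. Over the 83 members with a normalized count averaging 500 or more, the log2 levels in the control and TSA libraries correlated with r = 0.99 (Spearman's rho 0.99), a description across genes that share their libraries and are not replicates.

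**Figure D1:**
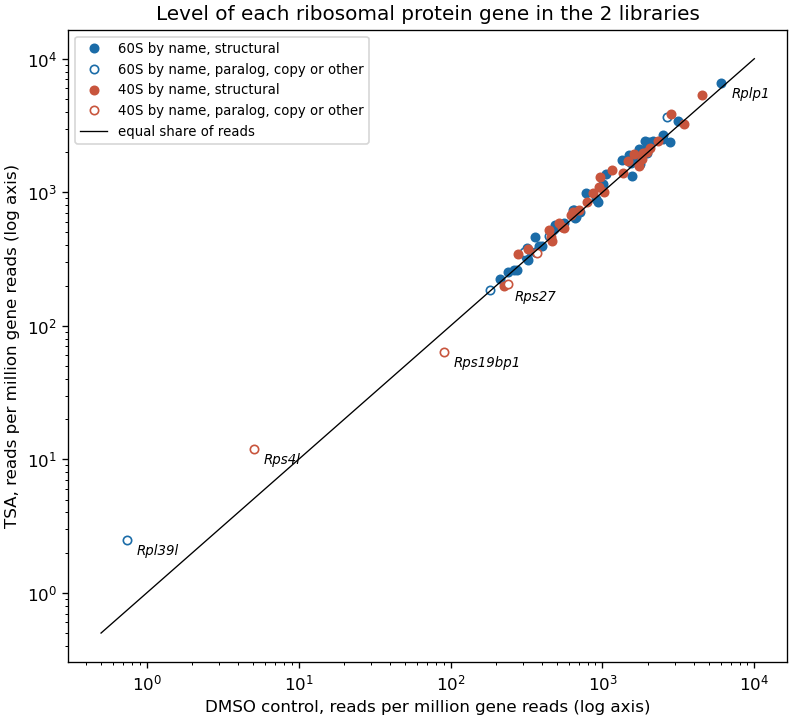
Level of the 85 tested ribosomal protein genes in the DMSO control library (x axis) and the TSA library (y axis), in RPM on log axes; each point is 1 gene in 1 library per condition, filled for structural proteins and open for paralogs, copies and others. The rarely read Rpl39l, at 0.738 and 2.49 RPM, and Rps4l, at 5.07 and 11.9, lie well above the line of equal share, and the other points lie close to it, up to Rplp1 at 6067 and 6599.

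The most read member was Rplp1, a protein of the P stalk, the arm of the large subunit that recruits elongation factors, with 6067 RPM in control and 6599 in TSA cells. Next came Rps20, a protein of the head of the small subunit, with 4494 and 5330. The 40S protein genes Rps9, which stands near the entry of the mRNA, and Rps14, of the platform, had 3432 and 2809 RPM in control and 3245 and 3864 in TSA cells, so their order was exchanged. Rpl22, a 60S protein that is known to be needed for the development of αβ T cells, stood at 3123 and 3432. The retrotransposed copy Rpl37rt had 2676 and 3679, the 6th level by the mean of both libraries. Rpl41, one of the smallest proteins of the cell, had 2507 and 2691. Rpl4, Rpl32 and Rps24 completed the 10 highest by that mean, at 2789, 2486 and 2336 RPM in control and 2364, 2502 and 2402 in TSA cells.

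For the comparison of TSA with control, the difference of a gene is its deposited TSA value minus its deposited control value, on the log2 scale of the normalized count plus 1. The deposited scaling differs from a scaling by total reads, and a ratio of RPM is therefore higher by 0.07 on the log2 scale than the deposited difference. A gene entered the comparison with 10 reads or more in either library, which left 12164 genes and 85 of the 87 members. Rpl3l, a paralog known from heart and skeletal muscle, had 0 reads in both libraries, which allows a level of up to 0.277 RPM in control and 0.288 in TSA cells. Rpl10l, a paralog known from the testis, had 1 read in control and 0 in TSA cells.

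The ribosomal protein genes lay close to no change as a group. Of the 85 members, 37 were lower and 48 were higher in the TSA library, with a median log2 difference of 0.022 and quartiles of -0.078 and 0.15. Over all 12164 genes the median was 0.015, and 48.6% were lower. The median of the members was above 0 under each of the 5 other scalings tried, between 0.020 and 0.11, while up to 18 single members changed sign. A scaling moves all genes together, and the median of all genes rose as well, to 0.085 with total reads and 0.099 without Rn45s in the total. Past 2-fold, the threshold of the study, 2 members were higher and 0 lower, beside 11.5% of all genes higher and 3.15% lower. Of these 2, Rpl39l had 8 reads in control and 26 in TSA cells. It thus entered the comparison only through the library where it was higher. Past 1.2-fold, a log2 difference of 0.263, 11 of 85 were higher (12.9%) and 5 lower (5.88%), beside 31.2% and 24.5% of all genes. These counts depend on the scaling: with total reads, with or without Rn45s, 16 were higher and 1 lower, and with the upper quartile 13 were higher and 2 lower. The background moved with them, to 35.6% of all genes higher and 19.3% lower with total reads, 36.5% and 18.4% without Rn45s in the total, and 34.0% and 21.5% with the upper quartile.

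Most members are among the abundant genes, for which the background differs. Of the 3962 genes with a normalized count averaging 500 or more, 65.6% were lower in the TSA library, with a median log2 difference of -0.107, which stayed below 0 under the 5 other scalings (-0.022 at the highest). Of the 83 members in this range 44.6% were lower, with a median of 0.020. Past 2-fold, 0.227% of the abundant genes were higher and 0.707% lower, and 0 of the 83 members lay past it in either direction. In the same range 9.14% of all genes were higher by more than 1.2-fold and 26.9% lower, and of the 83 members 9 were higher (10.8%) and 5 lower (6.02%). The share of members that were higher thus lay near the background and the share that were lower lay below it. With total reads 13.9% of the abundant genes were higher and 19.5% lower by this fold, and of the 83 members 14 were higher (16.9%) and 1 lower.

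**Figure D2:**
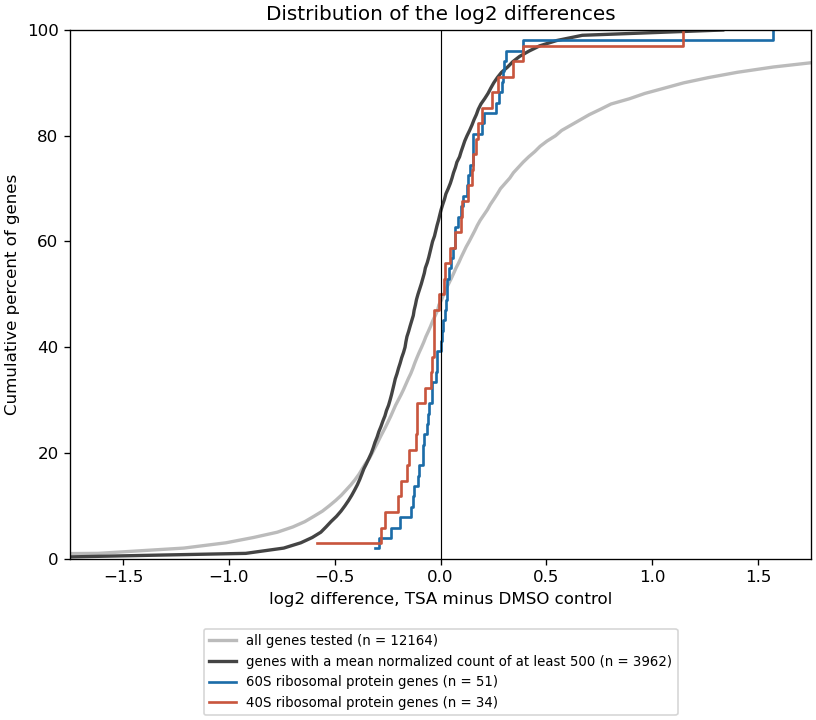
Cumulative percent of genes (y axis) against the log2 difference between the TSA and control libraries (x axis), for all 12164 genes, for the 3962 genes with a normalized count averaging 500 or more, and for the 51 genes of the 60S and the 34 of the 40S subunit by name. The curves of both subunits cross the midline close to 0 and are steeper than that of all genes, while the curve of the abundant genes lies to the left of them up to a difference of about 0.3, with its median at -0.107.

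Single members still differed by more than counting error. The 95% interval lay above no change for 39 of the 85 members and below it for 29, beside 28.1% and 28.0% of all genes, and it spanned no change for 17. An interval narrows with the reads of a gene, and among the abundant genes it lay above no change for 20.8% and below it for 48.5%, beside 37 (44.6%) and 29 (34.9%) of the 83 members in that range. Over the 83 abundant members the differences had an SD of 0.174 on the log2 scale, and the interval of a single gene reached a median of 0.043 to either side. The interval counts above are for the deposited scaling. Scaling by total reads raises all differences by 0.070, more than that median reach, so these counts depend on the scaling. Since each condition had 1 library, the spread between cultures is not known, and the part it has in these differences was not tested.

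**Figure D3:**
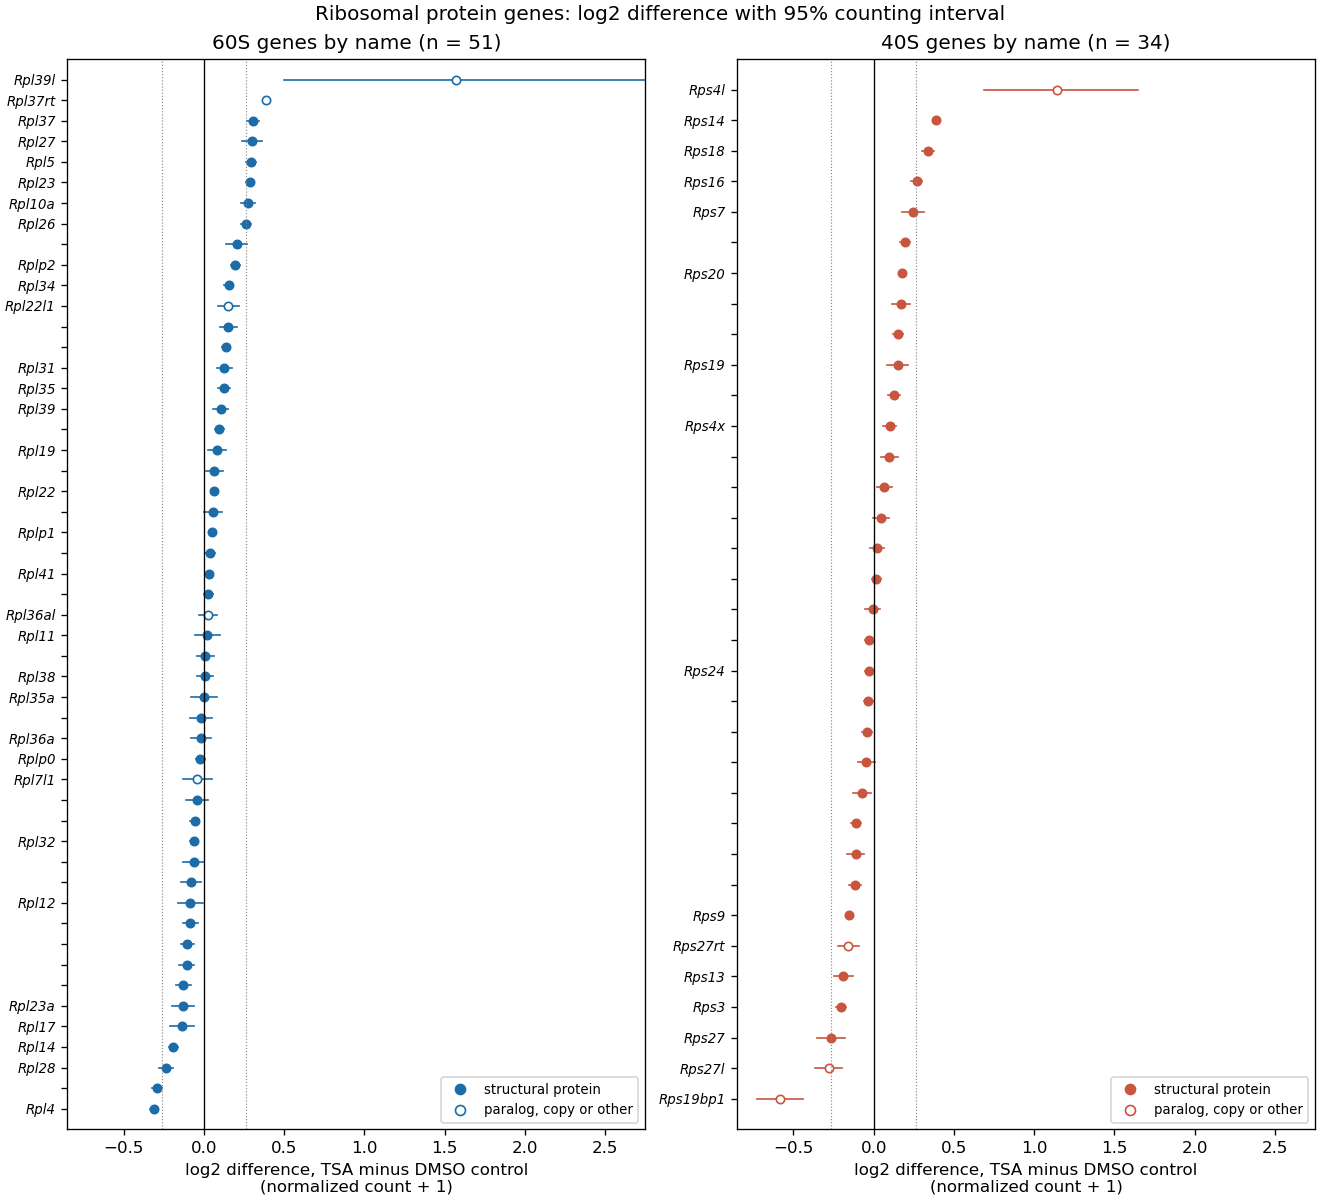
Log2 difference between the TSA and control libraries (x axis) for the 85 tested members, sorted within the 60S genes (left, n = 51) and the 40S genes (right, n = 34), with the genes named in the text labelled; points are single genes, bars their 95% counting intervals, dotted lines mark 1.2-fold, and open points are paralogs, copies and others. The structural genes of both subunits run from -0.31 for Rpl4 to 0.39 for Rps14; the bar of Rpl39l ends at 3.04, outside the plotted range.

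The subunits were alike in their medians. The 51 genes of the 60S by name had a median log2 difference of 0.029, with 20 lower and 31 higher, and the 34 of the 40S a median of 0.0045, with 17 lower and 17 higher. Under the 5 other scalings the 60S median lay between 0.027 and 0.11 and the 40S median between 0.0022 and 0.089. With structural proteins only, the medians were 0.026 for 46 genes of the 60S and 0.018 for 30 genes of the 40S.

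Among the 60S proteins, Rpl4, which lines part of the tunnel through which the new chain leaves the ribosome, was the lowest. Its level was 2789 RPM in control and 2364 in TSA cells, a log2 difference of -0.31 (95% counting interval -0.33 to -0.28). Rpl28 had 941 and 840 (-0.24, -0.28 to -0.19), and Rpl14 had 1756 and 1616 (-0.19, -0.22 to -0.16). Of these 3 genes, Rpl4 lay past 1.2-fold, and it no longer did with total reads (-0.24) or total reads without Rn45s (-0.22).

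On the other side stood Rpl37, with 1063 RPM in control and 1380 in TSA cells, a log2 difference of 0.31 (0.27 to 0.34). Rpl27 had 359 and 464 RPM (0.30, 0.24 to 0.36). Rpl10a, of the L1 stalk, where spent transfer RNA leaves, had 779 and 990 (0.28, 0.23 to 0.32). Rpl23, which also binds the p53 regulator Mdm2, had 1901 and 2437 (0.29, 0.26 to 0.31). These 4 and Rpl5 were the structural 60S genes higher by more than 1.2-fold, and Rpl26 lay just under it at 0.26. With the upper quartile and with both scalings by total reads Rpl26 passed it as well (0.30 to 0.35).

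The 5S ribonucleoprotein, made of 5S ribosomal RNA with Rpl5 and Rpl11, is the assembly unit that binds Mdm2 when ribosome production fails. Rpl5 had 1355 RPM in control and 1746 in TSA cells, a log2 difference of 0.30 (0.26 to 0.33). Rpl11 had 238 and 254, a log2 difference of 0.022 (-0.057 to 0.10), so the intervals of the differences of the 2 genes did not overlap. Of the 8 genes listed for this pathway 3 were lower (37.5%) and 5 higher, with a median log2 difference of 0.083. Of all genes 48.6% were lower, and of the abundant genes 65.6%. The higher ones were the members Rpl5, Rpl11, Rpl23 and Rps7, and Mdm4 (0.14). The lower ones were Cdkn1a, Trp53 and Mdm2 (-0.16), none of them a ribosomal protein gene. Cdkn1a, the cell cycle inhibitor induced by p53, was lowest, with 1388 and 833 reads and a log2 difference of -0.75, and Trp53, the gene of p53, had 1141 and 970 reads (-0.25).

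None of the 4 P stalk genes passed 1.2-fold, beside 9.14% of the abundant genes higher and 26.9% lower. Rplp2 did pass it under both scalings by total reads (0.27 and 0.28). Rplp1 had a log2 difference of 0.051 (0.036 to 0.066) and Rplp2 one of 0.20 (0.17 to 0.22). Rplp0, the base of the stalk, had -0.023 (-0.052 to 0.0055), and Rpl12, which binds beside it, had -0.084 (-0.16 to -0.0075). The values of Rplp0 and Rpl12 changed sign under other scalings (Rplp0 with total reads, with or without Rn45s, and with the upper quartile, Rpl12 with total reads without Rn45s).

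Around the exit of the tunnel, where targeting factors dock, 2 of 8 genes were lower and 6 higher, with a median log2 difference of 0.094, and none passed 1.2-fold as deposited. Rpl26, the best known target of the modifier Ufm1 at the membrane of the endoplasmic reticulum, was the highest, with 1500 RPM in control and 1887 in TSA cells (0.26, 0.23 to 0.29). Rpl31 (0.13), Rpl35 (0.12) and Rpl39 (0.11) had intervals above 0 as well, as did Rpl19 (0.082), while that of Rpl38 (-0.043 to 0.060) spanned no change. Rpl17 (-0.14, -0.21 to -0.062) and Rpl23a (-0.13, -0.20 to -0.060) were the lower ones.

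In the 40S subunit, Rps14, whose loss in people is linked to the anaemia of the 5q- syndrome, was furthest above 0 among the structural genes. It had 2809 RPM in control and 3864 in TSA cells, a log2 difference of 0.39 (0.37 to 0.41). Rps18, of the head of the subunit, had 971 and 1291 (0.34, 0.30 to 0.38), and Rps16, whose tail reaches the decoding site, had 1156 and 1462 (0.27, 0.23 to 0.30). These were the 3 structural 40S genes higher by more than 1.2-fold.

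Rps27 was the single structural 40S gene lower by more than 1.2-fold, with 226 RPM in control and 197 in TSA cells, a log2 difference of -0.27 (-0.35 to -0.18). It passed this limit narrowly, and no longer did with the upper quartile (-0.22), total reads (-0.19) or total reads without Rn45s (-0.18). Rps3, which lines the mRNA entry and also takes part in DNA repair, had 1734 and 1581 (-0.20, -0.23 to -0.17), and Rps13 had 468 and 431 (-0.19, -0.25 to -0.13). Of the 11 members on a list of genes mutated in Diamond-Blackfan anaemia, a failure of red cell production from too little of 1 ribosomal protein, 4 were lower and 7 higher, with a median of 0.022, the same as over all members, and 1 passed 1.2-fold (Rpl5, 9.09% of the list beside 9.14% of the abundant genes higher). With the upper quartile and with both scalings by total reads 3 of the 11 were higher past 1.2-fold (27.3%), beside 12.2% to 15.0% of the abundant genes and 34.0% to 36.5% of all genes.

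The only members past 2-fold were rarely read ones. Rpl39l, a paralog of Rpl39 best known from male germ cells, had 8 reads in control and 26 in TSA cells, a log2 difference of 1.57 with a wide interval (0.50 to 3.04). Rps4l, a transcribed copy of Rps4x, had 55 and 124 reads (1.14, 0.69 to 1.64). Neither interval lay wholly past 2-fold. The standard genes were 7027 and 7632 reads for Rpl39 and 9447 and 10233 reads for Rps4x, so the paralog held 0.0011 and 0.0034 times the reads of Rpl39, and the copy 0.0058 and 0.012 times those of Rps4x.

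Other paralogs were read at levels closer to those of the standard gene. Rps27l, the paralog of Rps27 that p53 induces, had 2589 and 2153 reads (-0.28, -0.36 to -0.20, past 1.2-fold as deposited and not under the 3 scalings that ended the call of Rps27), beside 2448 and 2057 for Rps27, so the ratio of the paralog to Rps27 was 1.06 in control and 1.05 in TSA cells. Rpl36al had 4792 and 4931 reads (0.027, -0.031 to 0.085), 1.15 and 1.19 times those of Rpl36a. Rpl22l1, which can take the place of Rpl22, had 3323 and 3732 reads (0.15, 0.085 to 0.22), 0.098 and 0.10 times those of Rpl22. The assembly factor Rpl7l1 had 1965 and 1929 reads (-0.041, -0.13 to 0.050).

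Rps19bp1, which encodes a small nucleolar protein that binds Rps19 and the deacetylase Sirt1, lay furthest below 0 of all tested members. It had 983 reads in control and 663 in TSA cells, a log2 difference of -0.58 (-0.73 to -0.44). Its partner Rps19 had 3525 and 3950 reads (0.15, 0.084 to 0.22). The whole interval of Rps19bp1 lay below a fall of 1.2-fold, and among the structural members the same held for Rpl4 alone.

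Retrotransposed copies carried more reads than their parent genes for 3 genes. Rpl37rt, annotated as a transcribed processed pseudogene on chromosome 5 (115102923 to 115110268, minus strand, GRCm38), had 29020 reads in control and 38380 in TSA cells. Its parent Rpl37 had 11527 and 14402, so the copy held 2.52 and 2.66 times the reads of the parent. Their log2 differences were 0.39 (0.37 to 0.41) and 0.31 (0.27 to 0.34), and the sum of both had 0.37 (0.35 to 0.38). Rps27rt, on chromosome 9 (114982366 to 114982739, minus strand), had 4044 and 3658 reads, 1.65 and 1.78 times those of Rps27, and a log2 difference of -0.16 (-0.22 to -0.094). The sum of Rps27 and Rps27rt had a log2 difference of -0.20 (-0.25 to -0.15), so the pair no longer passed 1.2-fold.

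The starts of Rps27 and Rps27rt show how close such a copy is. Both windows hold 10 bases before the sequence that the 2 genes share and its first 20 bases, which are in capitals; the shared run is 38 bases long around the starts annotated by RefSeq (GRCm38.p6).
Rps27 (chr3:90213628-90213657, minus strand): gctttcgctcCTTTCCGGCGGTGACGACCT
Rps27rt (chr9:114982720-114982749, minus strand): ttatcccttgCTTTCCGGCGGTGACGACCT
The run begins at base 2 from the annotated start of Rps27 and at base 1 from that of Rps27rt. All of the 75-base stretches of the coding part of Rps27 also occur in another annotated gene.

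Rows of 7 named pseudogene copies outside the name rule took 0.651% of all gene reads in control and 0.740% in TSA cells. Rplp2-ps1 alone had 40616 and 43299 reads, 2.15 and 1.98 times those of Rplp2, with a log2 difference of 0.078 (0.058 to 0.098). Rplp2 and its copy summed had 0.12 (0.10 to 0.13), against 0.20 for Rplp2 alone. Rpl34-ps1 had 20378 and 23059 reads, 0.93 times those of Rpl34 in both libraries. How reads that match several loci were treated is not given in the sources used here, so the division of reads between a parent and its copies is uncertain.

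Sequence shared with other loci was common across the members. For each of the 83 abundant members, the share of 75-base stretches of the coding part (the whole transcript for a gene with no coding part) that also occur in a GENCODE M21 transcript of another gene was counted, 75 bases being the read length. Over 50% was shared in 64 members, up to 50% in 15, and none in 4 (among them Rps3, Rpl41 and Rps19bp1). The 64 widely shared members had a median level of 681 RPM, averaged over both libraries, and the 15 with a smaller shared part 1921. Over the 83 members the shared percent and the log2 level had r = -0.25 (rho -0.33), and the shared percent and the log2 difference r = 0.16 (rho -0.043). The part of read assignment in the levels was not tested, and reads from 3′ ends outside the coding part are not covered by this count.

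Promoter and start sequences were matched by symbol for 66 of the 87 members. A run of at least 7 pyrimidines within 25 bases of an annotated start was present in 59.1% of the members, beside 32.7% of 27025 genes with a promoter in the table and 31.0% of 3012 other genes with a normalized count averaging 500 or more. The motif CCGGAAG, the core that ETS factors such as GABP bind, stood on either strand within the 300 bases around the start (250 before and 50 after) in 37.9% of the members, 9.93% of all genes and 26.2% of the other abundant genes. AAGATGGC, the core of the YY1 motif, stood in 9.09%, 3.19% and 7.30%, the GC box GGGCGG in 60.6%, 38.2% and 72.9%, and TATAAA in 10.6%, 15.7% and 8.03%. Genes with several annotated starts counted as holding a motif if any window held it, and the motifs were counted separately where they overlap.

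The differences were also read by start sequence, as a description. The 38 abundant members with a run of at least 7 had a median log2 difference of 0.0045 (18 lower and 20 higher), and the 25 without had 0.039 (8 lower and 17 higher). With CCGGAAG the median was 0.056 for 24 members (6 lower and 18 higher), and without it -0.016 for 39 (20 lower and 19 higher). Genes of small nucleolar or other small RNAs lie inside 31 of the abundant members, which had a median of -0.029, beside 0.025 for the 52 others. Transcript length and coding length had correlations of 0.045 and -0.11 with the log2 difference across genes.

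Ribosomal protein genes with other names were split as well. Rpsa, a 40S protein also known as a laminin receptor, had 11950 reads in control and 10441 in TSA cells, a log2 difference of -0.21 (-0.25 to -0.17). Fau, which encodes Rps30 fused to a ubiquitin-like protein, had 7884 and 7863 reads (-0.018, -0.063 to 0.027), and Gnb2l1, a scaffold for kinases on the 40S head, had 23134 and 25835 (0.15, 0.12 to 0.17). With the 4 listed genes added to the members the median over 89 genes was 0.022.

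In 4 lists of other genes around the ribosome most genes were lower as deposited, as were 48.6% of all genes and 65.6% of the abundant genes. Of 24 other genes whose mRNAs start with a TOP tract, among them these 4, 17 were lower (70.8%) and 7 higher, near the share of the abundant genes, with a median log2 difference of -0.11 (13 lower and -0.021 when scaled by total reads without Rn45s, where 52.9% of the abundant genes were lower). The intermediate filament gene Vim (1848 and 969 reads, -0.95) and Hnrnpa1, an RNA-binding protein (950 and 650, -0.56), were lowest, and Tpt1, the translationally controlled tumour protein (21009 and 25621, 0.27), was highest. Of 7 genes listed as elongation factors 5 were lower (71.4%), also near that share, with a median of -0.072. Eef1a1, Eef1b2, Eef1d, Eef1g and Eef2 are on the list of TOP mRNAs too, so these lists are not separate. Scaled by total reads without Rn45s, 3 of the 7 were lower and the median was 0.013. Eif5a, which helps ribosomes over stalling sequences, had 23818 and 16158 reads (-0.57), Eef1e1 had 793 and 628 (-0.35), Eef1a1, which delivers aminoacyl-tRNA, had 26046 and 29862 (0.18), and Eef1b2, which recharges it, had 19426 and 19852 (0.017).

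Of 14 genes of mTORC1 and of the regulators of TOP mRNAs 12 were lower (85.7%), with a median of -0.17 and between -0.17 and -0.082 under the other scalings. Mlst8, a subunit of mTORC1, had 364 and 240 reads (-0.61), and Larp1, which holds TOP mRNAs, had 6337 and 4860 (-0.40), while Tsc1, a brake on mTORC1, had 226 and 232 (0.023). The other higher gene, and the only one of the list past 1.2-fold higher, was the S6 kinase gene Rps6kb2, with 9 and 18 reads and a log2 difference of 0.91 whose interval spanned no change (-0.24 to 2.32). It entered the comparison only through its TSA reads. Past 1.2-fold 5 of the 14 were lower (35.7%), beside 24.5% of all and 26.9% of the abundant genes. With total reads 3 were lower (21.4%), beside 19.3% and 19.5%. The proteins of the mitochondrial ribosome were lower for 59 of 77 genes (76.6%), with a median of -0.18, and under the other scalings this median lay between -0.19 and -0.099. Past 1.2-fold, 29 were lower (37.7%), beside 24.5% of all and 26.9% of the abundant genes, and 2 were higher (2.60%), beside 31.2% and 9.14%. With total reads 22 were lower (28.6%), beside 19.3% of all and 19.5% of the abundant genes, and 6 were higher (7.79%), beside 35.6% and 13.9%. Without Rn45s in the total 21 were lower (27.3%), beside 18.4% of all and 18.2% of the abundant genes, and 7 higher (9.09%), beside 36.5% and 15.0%. Mrps7 (829 and 476 reads, -0.81) and Mrps15 (1476 and 879, -0.76) were lowest, and Mrpl24 (915 and 1334, 0.53) and Mrpl14 (582 and 754, 0.36) highest. The difference between these lists and the cytosolic ribosomal protein genes was not tested, since genes are not replicates.

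**Figure D4:**
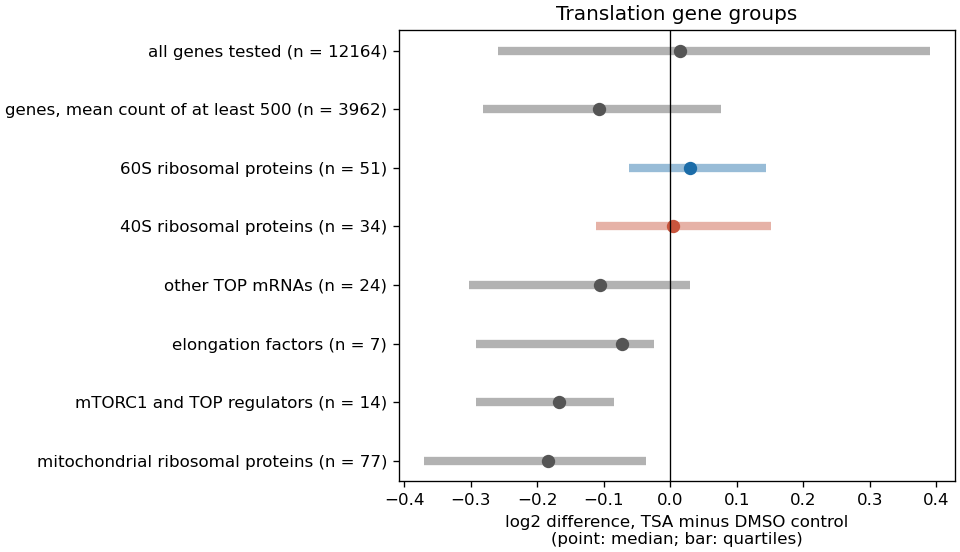
Median (point) and quartiles (bar) of the log2 difference between the TSA and control libraries (x axis) for the ribosomal protein genes of both subunits, for all genes, for genes with a normalized count averaging 500 or more and for 4 other groups of translation genes, with the number of genes tested in each. The 60S and 40S medians lie at 0.029 and 0.0045, and the mitochondrial ribosomal proteins at -0.18; the median of the elongation factors changes sign under 1 of the other scalings.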

How the data were processed

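Total RNA of 2 cultures was made into 3′ mRNA libraries (QuantSeq) and sequenced as single-end 75-nt reads. The submitters' processing notes name Bowtie2, bedtools and the genome build mm10. Tool versions, the annotation, the normalization and the treatment of reads with several matches are not given in the sources used here. The values deposited by the authors are log2 of a normalized count plus 1, for 23282 rows in each library. Taken back from the log2 scale, values below 300 were multiples of 1.005 (control) and 0.9951 (TSA) normalized counts, and 99.7% and 99.9% of them came out whole within 0.1 read. The log2 values carry 3 decimals, which sets an error of 0.035% on a recovered read count.

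Differences are deposited TSA minus deposited control values, with the pseudocount of 1 they hold. Intervals are exact Clopper-Pearson 95% intervals on the recovered reads, and a count of 0 allows up to 3 reads. With 1 library per condition no p-value was computed, and the intervals assume that reads are independent, so they cover counting error only. The plan allowed for raw counts or normalized values, and protein features were not used here. Gene positions and coding parts are from GENCODE M21 (GRCm38, the same assembly as mm10), which matched all 87 members, and start sequences from RefSeq (GRCm38.p6). No sequence of Rps14 and Rpl17 is printed. The steps were tested on simulated data. The scripts ran under Python 3.11.15 with scipy 1.17.1, matplotlib 3.10.9, pandas 2.3.3 and numpy 2.4.6.

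The members and gene lists were chosen with earlier results of these data known. Named are the 10 members with the highest mean level, the 10 lowest and 10 highest log2 differences among members with a normalized count averaging 100 or more, the paralogs, the P stalk, 5S and tunnel exit genes, the 4 other ribosomal proteins, and, with the same count minimum, the 2 largest changes each way in each other list. Rps4x, Rps7, Rps19, Rpl34, Rpl35a, Rpl36a, Rps6kb2, Mdm2, Mdm4, Eef1d, Eef1g, Eef2, the pseudogene copies and Rn45s were named after their values were seen. Some genes that this rule covers are not reported here. Alternatives concerned the scaling, the filter, the pseudocount, the fold and the members.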

Additional observations from a re-analysis of the deposited data

How the results depend on the processing

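No paired analysis was possible because each condition had 1 library, and for the same reason no library could be left out. The trimmed mean of M-values gave a factor equal to the deposited one to 4 decimals on the log2 scale, and it left every count of members given here as it was. Scaling by total reads raised all differences by 0.070 on the log2 scale: the median of the members was then 0.092, that of the 60S genes 0.099 and that of the 40S genes 0.075, with 23 members lower and 1 lower by more than 1.2-fold. With total reads without Rn45s the medians were 0.107, 0.114 and 0.089, with 19 members lower and 1 past 1.2-fold lower. With the upper quartile 2 members were lower by more than 1.2-fold. The number of single members that changed sign was 14, 18 and 10 under these scalings and 1 under the median of ratios, and 0 of those past 1.2-fold changed sign.

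The number past 2-fold was 1 (Rps4l) with at least 10 reads in both libraries. It was 0 with a normalized count averaging 100 or more or 500 or more, without paralogs, with structural proteins only, or with the whole interval past 2-fold. With no filter Rpl10l was past 2-fold as well, on 1 read in control and 0 in TSA cells (-1.003). With the whole interval past 1.2-fold 7 members were higher and 2 lower. The share of all genes was not formed for this setting, and an interval narrows with the reads of a gene. With structural proteins only, 3 were lower by more than 1.2-fold (3.95%), beside 24.5% of all and 26.9% of the abundant genes. Past 1.5-fold there were 2 members, as many as past 2-fold, and pseudocounts of 0.1 and 5 left the counts past 2-fold and past 1.2-fold as they were.

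The share of gene reads on members was 10.7% (control) and 11.8% (TSA) without Rn45s, 9.64% and 10.5% without paralogs, 10.3% and 11.2% with the 4 other ribosomal proteins, and, chosen after seeing the data, 9.33% and 10.1% for structural proteins only and 10.4% and 11.4% with the named pseudogene copies. The share was higher in the TSA library under each of these. A share without mitochondrial genes could not be formed, as 0 rows are named mt-. At this depth the interval of a member with a normalized count averaging 500 or more reached between 0.015 and 0.14 to either side on the log2 scale.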
